A study of Rattus norvegicus with 32 samples.

Results

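The mitochondrial ribosome is built from ribosomal RNA of the mitochondrial genome and from proteins that the nucleus encodes, and the genes of those proteins are described here across livers of a rat transplantation study. Members were taken from the deposited table as protein-coding Ensembl genes whose symbol begins with Mrps (small subunit) or Mrpl (large subunit) and a digit, and whose mean reached 1 FPKM in at least 1 of 3 groups. FPKM scales the fragments of a gene by its length and by the depth of the library, so it is a level per length. The choice gave 73 genes of 32883, 29 named Mrps and 44 named Mrpl, out of 76 symbols of that form. All 73 passed the filter on low values, at least 1 FPKM in at least 8 libraries, which 11924 genes passed.

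The animals were male rats of the inbred Lewis strain, the livers included grafts with macrosteatosis (large fat droplets in hepatocytes), and RNA was selected for poly(A) before sequencing. The labels give 12 post-transplant samples, 8 samples of long-term survivors and 12 pre-transplant samples. Of these, 11 post-transplant, 8 long-term survivor and 11 pre-transplant libraries were used, and 2 columns that share a header were not used. The labels used here give no time after transplantation, diet, treatment, donor or recipient, and nothing that says the samples came from separate animals, so p-values measure only the spread between these samples.

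Mitochondrial ribosomes sit at the inner membrane and make the few proteins that the mitochondrial genome encodes, all of them subunits of the respiratory chain and of ATP synthase. Their own proteins are made in the cytosol and imported. Some descend from bacterial ribosomal proteins, and others were added during the evolution of mitochondria. Liver is rich in mitochondria, which in hepatocytes carry fatty acid oxidation and the mitochondrial part of the urea cycle.

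The libraries held between 15372950 and 19311664 reads in Ensembl genes, recovered from the FPKM steps. The long-term survivor libraries stand apart from the others: 373 of 1218 unannotated genes were empty in all 8 of them and 0 in the rest. Among the unannotated genes' values, 3.15% to 4.99% fell on whole reads in these libraries, against 100% in every other library. Both differences cannot be told apart from the group. The mean of the long-term survivor libraries over all tested genes was 3.08 ± 0.01 on the log2(FPKM + 1) scale (SD, n = 8), against 3.24 ± 0.01 in pre-transplant libraries (SD, n = 11). Changes in long-term survivor livers are therefore given beside the median over all tested genes and under a second scaling. Long-term survivor replicates 3 and 7, and replicates 4 and 8, differed less from each other (chi-square per degree of freedom 3.17 and 3.42) than the next closest pair of 1 group (24.8). In whole liver RNA, fewer cells of a type and less RNA per cell cannot be told apart. The hepatocyte marker Hnf4a was present in every group, at 101.2 ± 42.0 FPKM in post-transplant (n = 11), 123 ± 22.8 FPKM in long-term survivor (n = 8) and 125 ± 26.5 FPKM in pre-transplant livers (SD, n = 11). It is 1 of 7 hepatocyte markers, of which 3 were called lower in post-transplant livers. The sum of the 7 had medians of 30759, 65027 and 77277 FPKM in the same order of groups.

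The sequences just before the start of a few members are shown because these genes are returned to below: a pair that shares 1 stretch of sequence, the 3 homologs of bacterial S18, the most abundant member, and a member with 1 of the smallest post-transplant changes whose promoter matches the motif of NRF1 more than once. NRF1 is a transcription factor known to drive many nuclear genes of mitochondrial proteins. The sequences are RefSeq sequences of the GRCr8 assembly, 250 bases before the annotated start on the strand of the gene, from chr9:22367381-22367630 (minus strand) for Mrps18a, chr20:2842756-2843005 (plus strand) for Mrps18b, chr14:9122907-9123156 (minus strand) for Mrps18c, chr6:30553988-30554237 (minus strand) for Mrpl33 and chr10:82804789-82805038 (plus strand) for Mrpl45. Mrps11 and Mrpl46 start 234 bases apart and run away from each other, and the 233 bases between them lie at chr1:142117031-142117263. Capitals mark matches, on either strand, to GCGCA, any base and then GCGC (NRF1), CCGGAAG (the ETS family, with GABPA) or CACGTG (the E-box bound by MYC).
Mrps11 and Mrpl46: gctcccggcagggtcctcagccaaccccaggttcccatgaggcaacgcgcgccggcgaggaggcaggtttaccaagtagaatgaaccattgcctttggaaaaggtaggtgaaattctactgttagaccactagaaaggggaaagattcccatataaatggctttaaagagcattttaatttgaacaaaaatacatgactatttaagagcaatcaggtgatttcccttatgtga
Mrps18a: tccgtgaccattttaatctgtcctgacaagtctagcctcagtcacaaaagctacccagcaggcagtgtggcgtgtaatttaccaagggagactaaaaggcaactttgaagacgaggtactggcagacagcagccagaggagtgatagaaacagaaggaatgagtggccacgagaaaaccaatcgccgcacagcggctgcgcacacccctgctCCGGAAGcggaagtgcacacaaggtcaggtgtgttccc
Mrps18b: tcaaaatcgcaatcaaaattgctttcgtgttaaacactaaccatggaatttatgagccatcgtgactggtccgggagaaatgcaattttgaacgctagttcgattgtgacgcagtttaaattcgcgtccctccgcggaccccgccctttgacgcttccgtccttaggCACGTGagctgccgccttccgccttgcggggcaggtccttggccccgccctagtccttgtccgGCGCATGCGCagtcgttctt
Mrps18c: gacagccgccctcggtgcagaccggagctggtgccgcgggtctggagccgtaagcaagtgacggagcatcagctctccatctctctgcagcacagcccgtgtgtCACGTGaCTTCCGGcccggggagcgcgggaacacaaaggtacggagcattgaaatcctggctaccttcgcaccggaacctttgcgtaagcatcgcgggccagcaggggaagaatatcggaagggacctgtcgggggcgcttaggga
Mrpl33: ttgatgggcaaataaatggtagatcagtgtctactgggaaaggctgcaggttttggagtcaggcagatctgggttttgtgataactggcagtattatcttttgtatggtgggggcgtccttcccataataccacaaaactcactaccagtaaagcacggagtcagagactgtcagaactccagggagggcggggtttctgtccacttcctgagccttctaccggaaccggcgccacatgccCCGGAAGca
Mrpl45: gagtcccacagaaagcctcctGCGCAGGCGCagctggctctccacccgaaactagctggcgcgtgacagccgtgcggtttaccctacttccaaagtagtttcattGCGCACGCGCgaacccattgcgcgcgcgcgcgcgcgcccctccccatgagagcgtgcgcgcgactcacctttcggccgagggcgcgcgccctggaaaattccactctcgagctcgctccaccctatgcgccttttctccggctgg

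The members spanned a wide range of levels. Mrpl33, a homolog of the small bacterial protein L33 and the shortest gene of the set at 236 bases, was highest, with a mean of the group means of 139.5 FPKM. It was followed by Mrpl54 (67.8 FPKM), Mrpl17 (63.7 FPKM), Mrps34 (61.3 FPKM), Mrpl43 (57.8 FPKM) and Mrpl52 (56.1 FPKM). Mrpl17 is a homolog of bacterial L17 near the exit of the nascent chain, while Mrpl54, Mrps34, Mrpl43 and Mrpl52 have no bacterial counterpart. In pre-transplant livers the levels of Mrps34 (75.5 ± 15.4 FPKM), Mrpl17 (65.4 ± 10.7 FPKM) and Mrpl52 (63.7 ± 7.13 FPKM, SD, n = 11 each) lay within each other's spread. At the low end, just inside the threshold, stood Mrpl30 with a mean of 1.96 FPKM in post-transplant, 2.19 FPKM in long-term survivor and 2.62 FPKM in pre-transplant livers. Mrpl47 averaged 2.86 FPKM in post-transplant, 2.38 FPKM in long-term survivor and 2.86 FPKM in pre-transplant livers. Just outside it stood Mrps21l, at 0.122, 0.198 and 0.217 FPKM in the same order of groups with at most 4 reads in any library, and Mrpl36, which was listed at 0 like Mrpl53. A further 3 genes of the kind carry symbols in lower case in the table and fall outside the choice (mrpl9, mrpl11 and mrpl24).

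Set against pre-transplant livers, post-transplant livers had lower levels of most mitoribosomal protein genes. By limma's moderated test on log2(FPKM + 1), with Benjamini-Hochberg adjustment over all tested genes and a threshold of 0.05, 52 of 73 members fell, 1 rose and 20 did not pass. Among all tested genes 26.6% fell and 23.4% rose. The median member change was -0.31 on the log2 scale, against -0.03 over all tested genes, and the estimate was below 0 for 69 of 73 members. In 8 members every post-transplant library lay below every pre-transplant library, as in 0.964% of all tested genes. Under median-of-ratios scaling 47 members fell and 1 rose, beside 24.5% and 24.1% of all tested genes, and under quantile normalization 35 fell and 2 rose, beside 29.9% and 22.3%. The changes were modest in size: 5 of 73 members fell by at least 1.5-fold at the same adjusted p, as did 10.5% of all tested genes.

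**Figure D1:**
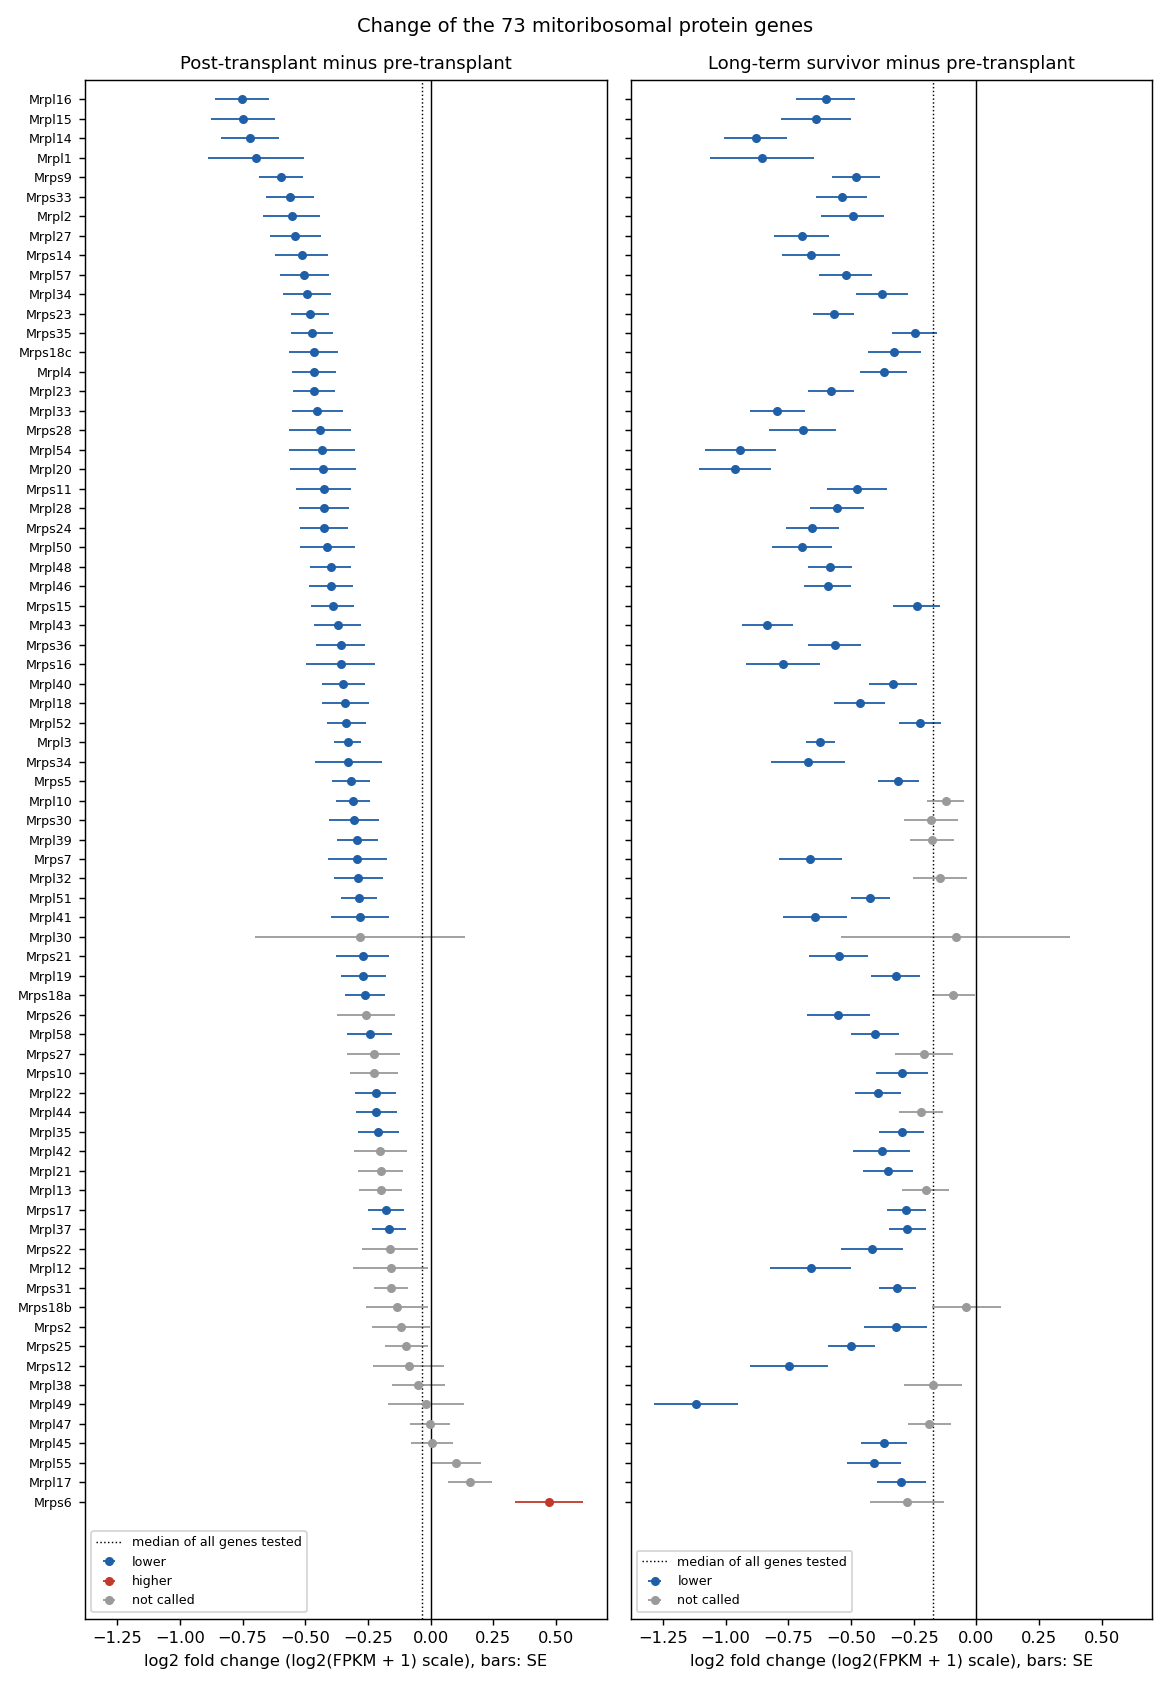
Change of each of the 73 mitoribosomal protein genes, post-transplant minus pre-transplant (left) and long-term survivor minus pre-transplant (right), as log2 fold change on the log2(FPKM + 1) scale with its SE; each point is 1 gene and colour gives the call at an adjusted p of 0.05. The left panel has 52 genes called lower and Mrps6 called higher. In the right panel 60 are called lower, beside a median of all tested genes (dotted line) of -0.17.

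The greatest falls were in large-subunit proteins of bacterial descent. Mrpl16, a homolog of bacterial L16, which lies close to the peptidyl transferase centre, had 15.2 to 30.1 FPKM in post-transplant livers (median 26.6), against 33.3 to 48.4 FPKM in pre-transplant livers (median 38.4). In the deposited table, whose build is not stated, it is gene ENSRNOG00000021005 at chr1:228142778-228147579 on the plus strand. All 11 post-transplant libraries were below the lowest pre-transplant one, and the change was -0.75 ± 0.11 (log2, SE; limma adjusted p = 1.62e-06). Mrpl14, a homolog of L14, which contacts the small subunit when the subunits join, had 19.9 to 36.8 FPKM in post-transplant livers (median 26.5), against 36.8 to 51.3 FPKM in pre-transplant livers (median 46.6). Its groups again did not overlap, with a change of -0.72 ± 0.12 (limma adjusted p = 7.98e-06). Mrpl15, a homolog of L15, had 13.9 to 32.9 FPKM in post-transplant livers (median 24.5), against 32.8 to 47.4 FPKM in pre-transplant livers (median 40.3). Here 10 of 11 post-transplant libraries were below the pre-transplant range, and the change was -0.75 ± 0.13 (limma adjusted p = 1.94e-05). Mrpl1, a homolog of L1 at the stalk beside the tRNA exit, had 0.308 to 5.01 FPKM in post-transplant livers (median 3.56), against 3.65 to 9.47 FPKM in pre-transplant livers (median 5.10). Its change was -0.70 ± 0.19 (limma adjusted p = 0.00315), its groups overlapped, and it was thinly counted, with 7 reads in the lowest post-transplant library.

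Of the 6 most abundant members, 5 fell. Mrpl33 had 98.8 to 166 FPKM in post-transplant livers (median 135), against 149.9 to 227 FPKM in pre-transplant livers (median 179). Here 10 of 11 post-transplant libraries were below the pre-transplant range, and the change was -0.45 ± 0.10 (limma adjusted p = 0.00044). Mrpl54 changed by -0.43 ± 0.13, Mrpl43 by -0.37 ± 0.09, Mrpl52 by -0.34 ± 0.08 and Mrps34, a small-subunit protein whose loss in people causes Leigh syndrome, by -0.33 ± 0.13 (limma adjusted p = 0.00673, 0.00152, 0.000589 and 0.0429). These calls were lost under quantile normalization, which gives all libraries the same distribution: the changes were then -0.03 for Mrpl33, -0.13 for Mrpl54, -0.12 for Mrpl43, -0.13 for Mrpl52 and -0.07 for Mrps34, with limma adjusted p of 0.801, 0.393, 0.268, 0.11 and 0.679. The call of Mrps34 was also lost under median-of-ratios scaling (adjusted p = 0.0554) and in 10 of the fits without 1 library.

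Mrpl17 was the exception among the abundant members. It had 57.6 to 97.6 FPKM in post-transplant livers (median 70.1), against 55.0 to 91.4 FPKM in pre-transplant livers (median 62.8), and its change of 0.16 ± 0.09 did not pass (limma adjusted p = 0.14). The groups overlapped over nearly their whole range. The test passed under quantile normalization (0.45, adjusted p = 0.000942), after removal of a trend with gene length (0.22, adjusted p = 0.0191) and without pre-transplant library u2, 1 of 2 with no replicate number (0.21, adjusted p = 0.0351). The members with the smallest change were Mrpl47, a homolog of L29 at the mouth of the exit tunnel, at -0.0024 ± 0.08, and Mrpl45, a protein resembling TIM44 that helps to hold the ribosome at the inner membrane, at 0.0044 ± 0.08 (limma adjusted p = 0.983 and 0.971). Mrpl47 overlaps the oppositely directed gene Actl6a by 1443 bases, and whether the counting used strand is not given. Actl6a averaged 5.65 FPKM in post-transplant and 5.15 FPKM in pre-transplant livers. Mrpl45 had 8.35 to 13.1 FPKM in post-transplant livers (median 10.8), against 7.87 to 14.5 FPKM in pre-transplant livers (median 10.5).

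Mrps6 was the member that rose. It is a homolog of bacterial S6, a small-subunit protein that in bacteria binds beside S18, and is gene ENSRNOG00000059381 at chr11:32211115-32263899 in the table. It had 8.55 to 21.5 FPKM in post-transplant livers (median 12.0), against 5.96 to 17.1 FPKM in pre-transplant livers (median 8.79), with a change of 0.47 ± 0.14 (limma adjusted p = 0.00488). The groups overlapped, and 2 of 11 post-transplant libraries were above the pre-transplant range.

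Mammals carry 3 homologs of S18, which occupy different places: Mrps18c takes the position of S18, Mrps18b lies elsewhere in the small subunit, and Mrps18a lies in the large subunit despite its name. Mrps18c had 12.9 to 23.7 FPKM in post-transplant livers (median 19.6), against 23.1 to 36.1 FPKM in pre-transplant livers (median 26.4). Its change was -0.47 ± 0.10 (limma adjusted p = 0.000246), a fall where its neighbour Mrps6 rose. Mrps18a had 19.4 to 31.9 FPKM in post-transplant livers (median 27.0), against 28.5 to 36.7 FPKM in pre-transplant livers (median 30.3), a change of -0.26 ± 0.08 (limma adjusted p = 0.00706, but 0.0962 under quantile normalization). It overlaps the oppositely directed gene Rsph9 by 6709 bases. Mrps18b had 10.8 to 30.6 FPKM in post-transplant livers (median 20.04), against 18.02 to 33.8 FPKM in pre-transplant livers (median 21.3), and its change of -0.13 ± 0.12 did not pass (limma adjusted p = 0.392). The 3 changes were not tested against each other.

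**Figure D2:**
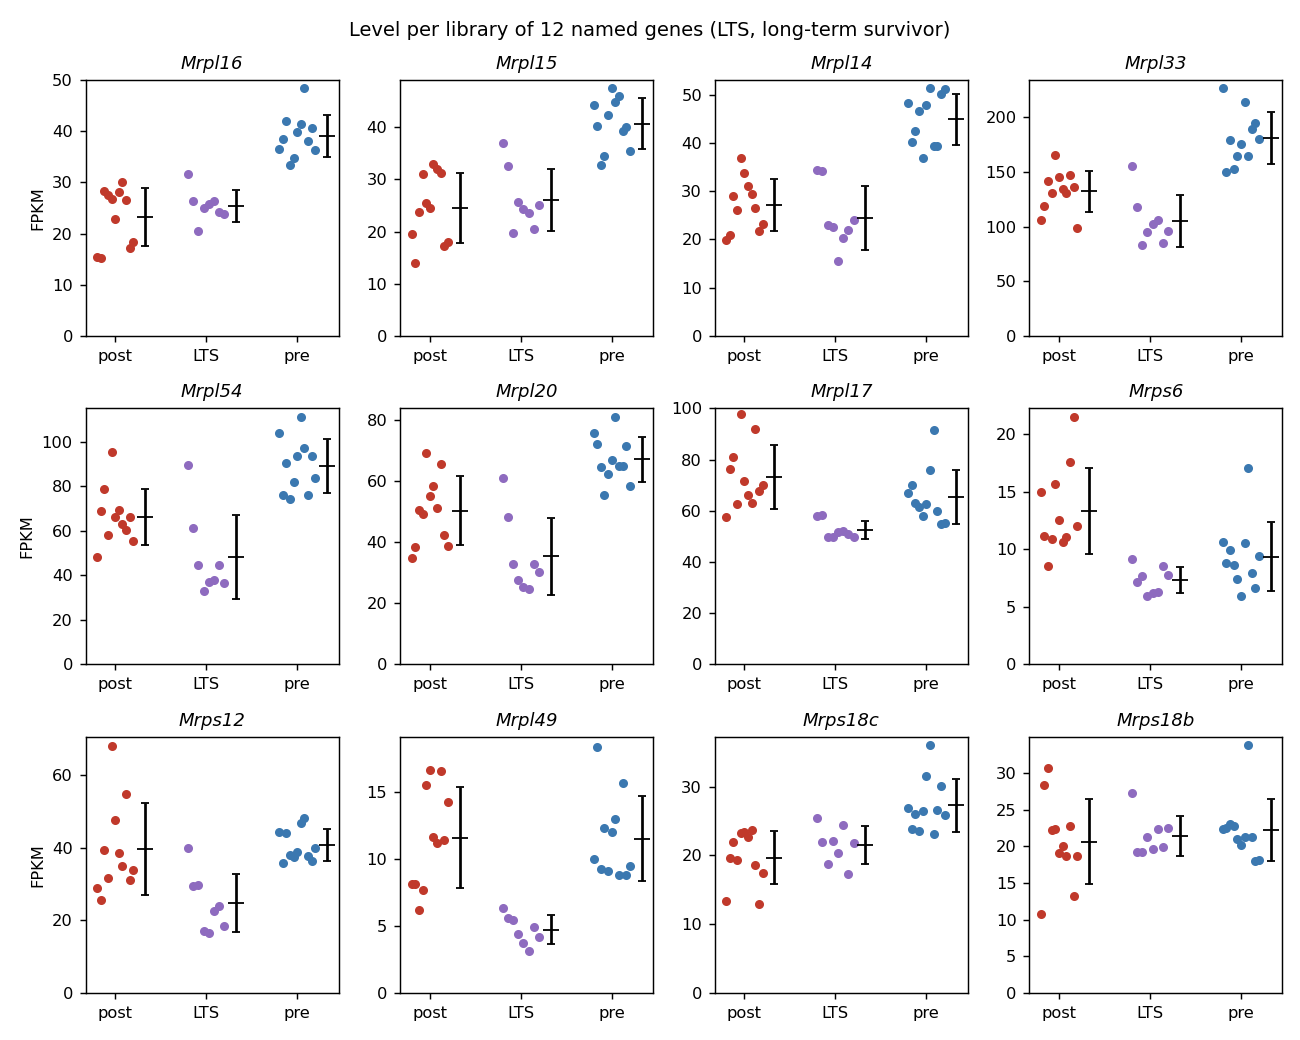
FPKM in each library of 12 named genes, for post-transplant, long-term survivor and pre-transplant libraries from left to right; each point is 1 library and the bars give mean and SD. The post-transplant points of Mrpl16 and Mrpl14 all lie below the pre-transplant points, those of Mrps6 lie higher with overlap, and the 8 long-term survivor points of Mrpl49 all lie below the pre-transplant points.

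Long-term survivor livers also had lower levels of the set than pre-transplant livers, with a larger dependence on scaling. The same test called 60 of 73 members lower and 0 higher, where 30.8% of all tested genes were called lower and 3.85% higher. The estimate was below 0 for 73 of 73 members, with a median of -0.42, while the median over all tested genes was itself -0.17. With libraries rescaled by median-of-ratios factors 32 members were called lower and 0 higher, beside 8.93% and 8.57% of all tested genes, and the median member change was -0.23. Under quantile normalization 30 were lower and 0 higher, beside 8.95% and 7.6%. With a length trend removed after median-of-ratios scaling 26 were lower and 1 higher, beside 9.05% and 7.75%, and with the closest libraries averaged instead 19 were lower and 0 higher, beside 5.26% and 4.91%. In 9 members all long-term survivor libraries lay below all pre-transplant libraries under the authors' scaling, as in 3.09% of all tested genes. A fall of at least 1.5-fold was called for 22 of 73 members and 7.6% of all tested genes. Both comparisons use the same pre-transplant libraries, so the values of a gene in them are given side by side only.

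Mrpl49, a large-subunit protein with no bacterial counterpart, changed most. It is gene ENSRNOG00000020975 at chr1:221417336-221420115 in the table, and had 3.11 to 6.36 FPKM in long-term survivor livers (median 4.65), against 8.76 to 18.4 FPKM in pre-transplant livers (median 9.96). All 8 long-term survivor libraries were below the pre-transplant range, and the change was -1.12 ± 0.17 (limma adjusted p = 1.56e-05). Its post-transplant change was -0.02 ± 0.15 (limma adjusted p = 0.93). Mrpl49 overlaps the oppositely directed gene Syvn1 by 551 bases in the table, and whether the counting used strand is not given in the sources used here. Syvn1 averaged 12.5 FPKM in long-term survivor and 13.3 FPKM in pre-transplant livers. Fau, which encodes a ubiquitin-like protein fused to the cytosolic ribosomal protein S30, starts 186 bases from Mrpl49 and runs the other way. Its changes against pre-transplant livers were -1.36 in long-term survivor and -0.84 in post-transplant livers (limma adjusted p = 0.00537 and 0.0405), or -1.14 and -0.82 with median-of-ratios factors (adjusted p = 0.031 and 0.0473).

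Mrpl20, a homolog of a protein that bacteria need early in building the large subunit, had 24.5 to 60.8 FPKM in long-term survivor livers (median 31.4), against 55.2 to 80.8 FPKM in pre-transplant livers (median 64.9). Of the long-term survivor libraries 7 of 8 were below the pre-transplant range, and the change was -0.96 ± 0.14 (limma adjusted p = 1.52e-05). Its post-transplant change was -0.43 ± 0.13 (limma adjusted p = 0.00737, but 0.168 under quantile normalization). Mrpl54 had 32.99 to 89.5 FPKM in long-term survivor livers (median 41.3), against 74.1 to 111 FPKM in pre-transplant livers (median 90.3), a change of -0.94 ± 0.14 (limma adjusted p = 1.82e-05). Mrpl14 had 15.4 to 34.4 FPKM in long-term survivor livers (median 22.8), below every pre-transplant library, and a change of -0.88 ± 0.13 (limma adjusted p = 8.99e-06). Under median-of-ratios scaling the changes were -0.93 for Mrpl49, -0.75 for Mrpl20, -0.73 for Mrpl54 and -0.67 for Mrpl14, each still called (limma adjusted p = 0.000305, 0.000534, 0.000682 and 0.000434). With a length trend removed as well, they were at -0.75, -0.61, -0.56 and -0.55 in the same order and still called.

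Other named members were lower in long-term survivor livers as well, some only under the authors' scaling. Mrpl33 (-0.79 ± 0.11) and Mrpl43 (-0.83 ± 0.10) were called under both scalings, at -0.58 and -0.62 with median-of-ratios factors. Mrps12, a homolog of S12 at the decoding centre, had 16.6 to 39.7 FPKM in long-term survivor livers (median 23.1), against 35.7 to 48.1 FPKM in pre-transplant livers (median 38.7). Its change was -0.75 ± 0.16 (limma adjusted p = 0.000554; -0.54 and 0.0158 with median-of-ratios factors, -0.50 and 0.0542 with the closest libraries averaged as well). Mrpl17 (-0.30), Mrpl45 (-0.37), Mrpl52 (-0.22), Mrps18c (-0.33) and Mrps35 (-0.25) lost their calls with those factors, at limma adjusted p of 0.581, 0.194, 0.949, 0.468 and 0.785. Mrps18a (-0.09 ± 0.09) and Mrps18b (-0.04 ± 0.14) did not pass, and with those factors their estimates were above 0, at 0.12 and 0.17. With a length trend removed as well, Mrps18a was called higher, at 0.23 (limma adjusted p = 0.0232), and Mrps18b did not pass (0.14, adjusted p = 0.512). Mrps6 had 5.97 to 9.17 FPKM in long-term survivor livers (median 7.45), and its change of -0.28 ± 0.15 did not pass (limma adjusted p = 0.149).

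Between long-term survivor and post-transplant livers the counts of members called lay near or below the shares of all tested genes. Whether more members fell or rose depended on the scaling. By the same test 18 of 73 fell and 2 rose, where 36.9% of all tested genes fell and 10.5% rose, and the median member change of -0.14 stood beside -0.16 over all tested genes. With median-of-ratios factors 6 fell and 13 rose, beside 21.6% and 20.7% of all tested genes. The median member change was then 0.035, beside -0.0069 over all tested genes. After removal of a length trend as well, 8 fell and 16 rose, beside 22.2% and 20.9%. With the closest libraries averaged instead, 5 fell and 13 rose, beside 19.5% and 18.2%. Under quantile normalization 13 fell and 13 rose, where 2445 and 2903 of 11924 tested genes did. The median was 0.040 for the members and 0.035 over all tested genes. Mrpl49 had 3.11 to 6.36 FPKM in long-term survivor livers (median 4.65), against 6.17 to 16.6 FPKM in post-transplant livers (median 11.4), a change of -1.10 ± 0.17 (limma adjusted p = 6.75e-06; -0.93 with median-of-ratios factors). Mrps6 had 5.97 to 9.17 FPKM in long-term survivor livers (median 7.45), against 8.55 to 21.5 FPKM in post-transplant livers (median 12.0). Of the long-term survivor libraries 7 of 8 were below the post-transplant range of Mrps6, and the change was -0.75 ± 0.15 (limma adjusted p = 0.000176; -0.57 with median-of-ratios factors). Mrps12 changed by -0.66 ± 0.16 (limma adjusted p = 0.00101) and Mrpl20 by -0.53 ± 0.14 (limma adjusted p = 0.00314, but 0.0508 with median-of-ratios factors). Mrps35, a small-subunit protein (0.23 ± 0.09), and Mrpl10, at the base of the stalk that recruits translation factors (0.19 ± 0.07), were higher (limma adjusted p = 0.0368 and 0.0357). The call of Mrps35 was lost in 10 and that of Mrpl10 in 8 of the fits without 1 library, with limma adjusted p of up to 0.114 and 0.0707. Without long-term survivor replicate 1, 30 of 73 members were called lower, beside 36.8% of all tested genes. With array weights 33 members were lower and 2 higher, beside 40.4% and 12.8%, and with the closest libraries averaged under the authors' scaling 12 and 1, beside 32.9% and 8.99%. At an adjusted p under 0.01, 11 were lower, beside 27.6%, and 3 fell by at least 1.5-fold, beside 15.5%.

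Libraries of a group also differed from each other in the average over the 73 members. The mean on the log2(FPKM + 1) scale was 4.28 ± 0.20 in post-transplant (n = 11), 4.13 ± 0.18 in long-term survivor (n = 8) and 4.59 ± 0.08 in pre-transplant livers (SD, n = 11). Post-transplant libraries ran between 3.93 and 4.51, long-term survivor libraries between 3.99 and 4.52, and pre-transplant libraries between 4.48 and 4.74. Post-transplant replicate 2 was the lowest library of its group for 30 of 73 members, and long-term survivor replicate 1 was the highest of its group for 60 of 73. Without that replicate the long-term survivor mean was 4.07 ± 0.09 (SD, n = 7), between 3.99 and 4.27. The mean over small-subunit members minus that over large-subunit members was -0.08 ± 0.05 in post-transplant, -0.10 ± 0.03 in long-term survivor and -0.11 ± 0.05 in pre-transplant libraries (SD), within the spread between libraries.

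**Figure D3:**
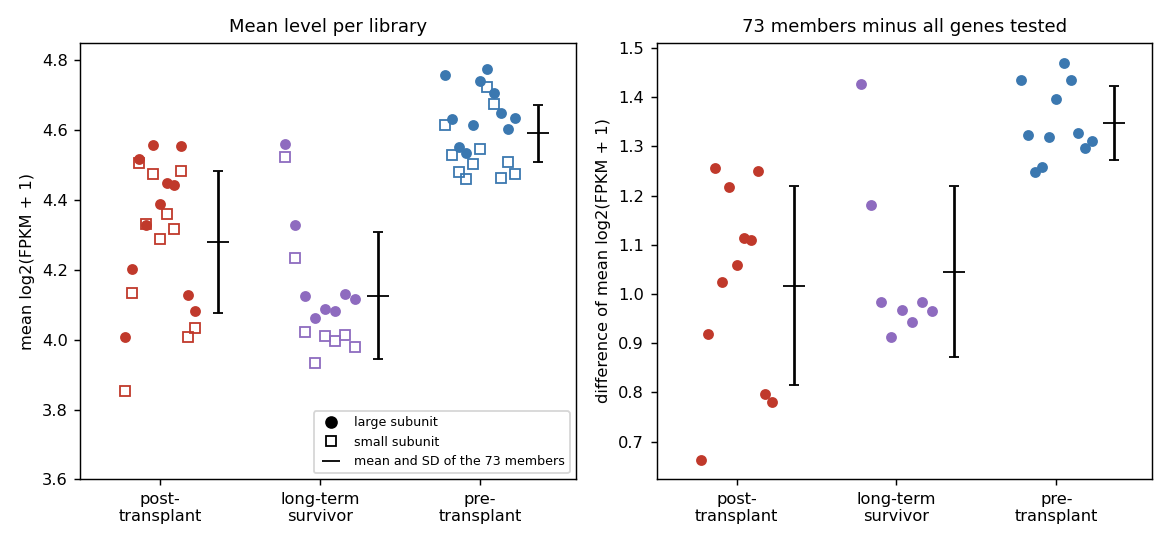
Left, the mean log2(FPKM + 1) per library over large-subunit and over small-subunit members, for post-transplant, long-term survivor and pre-transplant libraries; right, the mean over the 73 members minus the mean over all tested genes. On the right the post-transplant libraries lie between 0.66 and 1.26, the long-term survivor libraries between 0.91 and 1.43 and the pre-transplant libraries between 1.248 and 1.47.

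Lower levels were found in both subunits and for both origins of the proteins. By their place in known structures, 16 of 26 small-subunit members fell and 1 rose in post-transplant livers (median -0.30), and 35 of 46 large-subunit members fell and 0 rose (median -0.31). Among members of bacterial descent 31 of 42 fell and 1 rose (median -0.34), and among members without a bacterial counterpart 18 of 27 fell and 0 rose (median -0.29). Of all tested genes 26.6% fell and 23.4% rose. In long-term survivor livers 23 of 26 small-subunit and 36 of 46 large-subunit members were called lower (medians -0.48 and -0.41), or 12 and 19 with median-of-ratios factors. Of all tested genes 30.8% were lower, or 8.93% with those factors. The differences between these kinds of members were not tested. Mrps36, which despite its name is a component of the 2-oxoglutarate dehydrogenase complex of the citric acid cycle, changed by -0.36 ± 0.10 in post-transplant livers (limma adjusted p = 0.00277). The members are short, with a median gene length of 1149 bases against 2185 over all tested genes. After removal of a trend with length, 43 members fell and 2 rose in post-transplant livers, beside 28.2% and 22.7% of all tested genes, and 55 were lower in long-term survivor livers, beside 34.1%.

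The labels name no batch, but the titles of the post-transplant and pre-transplant samples are numbered, without a gap between 2 and 13 and between 15 and 26. In that order 3 pre-transplant samples are followed by 3 post-transplant samples, 4 times over, and each such repeat was taken as a run here, so that the division at numbers 7 and 20 comes from the order of the groups. Within the runs, 72, 56, 70 and 64 of 73 members had a lower mean in post-transplant than in pre-transplant libraries, and the median member differences were -0.55, -0.14, -0.33 and -0.36. Of all tested genes 50.2% to 52.3% were below 0 within a run, and their median lay between -0.03 and -0.0032. In all 4 runs 52 members were below 0, and 0 were above 0. The matching share of all tested genes over all 4 runs was not computed, and each run holds only 2 or 3 libraries of a group. With the run as a term of the fit, 54 members fell and 1 rose, beside 26.1% and 22.7% of all tested genes. Mrpl16 was at -1.29, -0.37, -0.72 and -0.88 in the 4 runs. Mrps6 was at 0.37, 0.58, -0.22 and 0.98, above 0 in 3 of them. The long-term survivor libraries lie outside these runs.

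**Figure D4:**
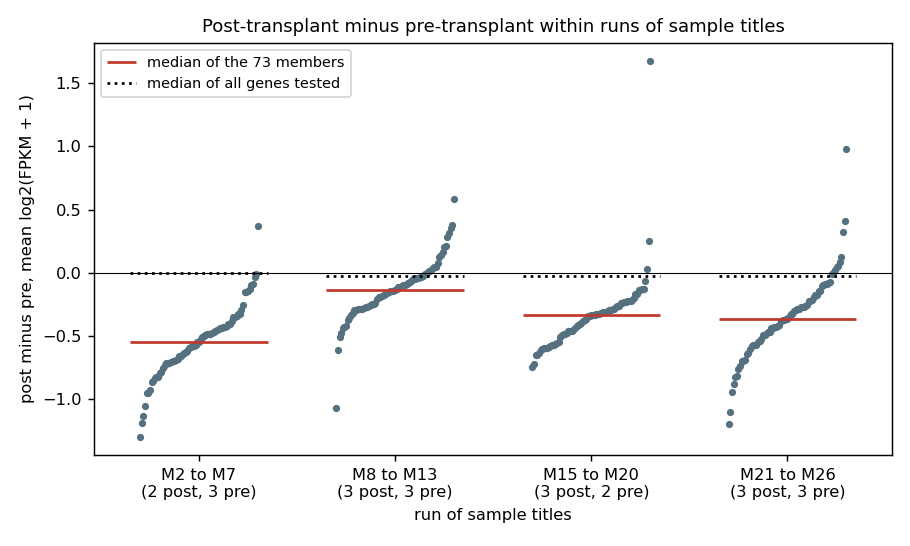
Post-transplant minus pre-transplant difference of mean log2(FPKM + 1) for each of the 73 members within each of 4 runs of sample titles, divided by the repeated order of the groups, with the median of the members and that of all tested genes as lines. The members' medians of -0.55, -0.14, -0.33 and -0.36 lie below the medians of all tested genes.

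Mrpl30, a homolog of L30, varied more within groups than between them. It had 0.0333 to 6.21 FPKM in post-transplant livers (median 1.46), 0.0602 to 5.19 FPKM in long-term survivor livers (median 2.40) and 0.0943 to 5.40 FPKM in pre-transplant livers (median 2.05). Its changes of -0.28 ± 0.42 in post-transplant and -0.08 ± 0.46 in long-term survivor livers, against pre-transplant livers, did not pass (limma adjusted p = 0.606 and 0.906). In the table the gene overlaps the oppositely directed gene Mitd1 by 76963 bases.

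Mrps11, a homolog of S11 in the small subunit, and Mrpl46, a large-subunit protein without a bacterial counterpart, share the stretch of sequence shown above and were chosen for that. Mrps11 had 15.6 to 29.2 FPKM in post-transplant livers (median 22.6), against 22.9 to 37.2 FPKM in pre-transplant livers (median 28.6), a change of -0.43 ± 0.11 (limma adjusted p = 0.00183). Mrpl46 had 7.18 to 12.8 FPKM in post-transplant livers (median 9.69), against 10.6 to 17.7 FPKM in pre-transplant livers (median 12.4), a change of -0.40 ± 0.09 (limma adjusted p = 0.000356). Against pre-transplant livers, the long-term survivor changes were -0.48 ± 0.12 for Mrps11 and -0.59 ± 0.09 for Mrpl46 (limma adjusted p = 0.00286 and 3.28e-05), and with median-of-ratios factors -0.27 and -0.40 (adjusted p = 0.112 and 0.00354). Of the motifs searched, their shared stretch holds 0. Among all members, 18 have a neighbour that starts within 1000 bases and runs the other way. Apart from Mrps11 and Mrpl46 themselves, 13 such neighbours were tested. In post-transplant livers 5 of them fell and 2 rose, where 26.6% and 23.4% of all tested genes did. In long-term survivor livers 6 were lower and 0 higher, beside 30.8% and 3.85% of all tested genes, and with median-of-ratios factors 1 was lower and 0 higher, beside 8.93% and 8.57%.

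RefSeq promoters were found for 58 of 73 members, as 60 windows of 250 bases since Mrpl14 and Mrps21 have a pair each. The NRF1 motif, read on both strands like the others, stood in 7 windows (11.7%) and in 3.75% of 33469 promoters of all genes. The ETS motif stood in 11 windows (18.3%) and in 7.27% of all promoters. At least 1 of these motifs was in 28.3% of the members' windows and in 10.4% of all promoters. The E-box stood in 3 windows (5.0%, against 5.59%) and the cAMP response element TGACGTCA in 1 (1.67%, against 1.59%). The motif of YY1, searched as AANATGGCG, was in 0 windows and in 1.38% of all promoters. The share of G and C had a median of 54.0% in the members' windows, against 51.2% in all promoters. In the sequences shown, Mrps18b holds the NRF1 motif and the E-box, Mrps18c the ETS motif and the E-box, Mrps18a and Mrpl33 the ETS motif, and Mrpl45 the NRF1 motif at 2 places. Mrpl57, whose sequence is not shown, also holds the NRF1 motif at 2 places. Its post-transplant change was -0.50 ± 0.10 (limma adjusted p = 8.95e-05), where Mrpl45 did not pass. Whether the motifs go with the changes was not tested. A match is a string of letters and not a measured binding site.

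Other genes needed for mitochondrial translation were lower in post-transplant livers. Of all tested genes 26.6% fell and 23.4% rose there, with a median change of -0.03. The list of mitoribosome assembly, at 40.9% lower, stood nearest to that share. Of 13 tested translation factors 11 fell and 0 rose (median -0.25). Gfm1, the elongation factor that moves the ribosome along the messenger, averaged 22.9 ± 5.96 FPKM in post-transplant and 40.8 ± 5.0 FPKM in pre-transplant livers (SD, n = 11 each), a change of -0.84 ± 0.11 (limma adjusted p = 5.66e-07). Tufm, which delivers aminoacyl-tRNA, changed by -0.56 ± 0.11, and Guf1, a GTPase related to LepA of bacteria, by -0.47 ± 0.08 (limma adjusted p = 9.19e-05 and 1.84e-05). Of 19 mitochondrial aminoacyl-tRNA synthetases and amidotransferase subunits, 15 fell and 0 rose (median -0.35), among them Cars2 at -1.15 ± 0.13 and Gatb at -0.85 ± 0.11 (limma adjusted p = 9.75e-08 and 6.86e-07). Of 22 genes of mitoribosome assembly and ribosomal RNA modification, 9 fell and 0 rose (median -0.17), among them Rbfa, a small-subunit maturation factor, at -0.72 ± 0.12 and Mterf4 at -0.55 ± 0.08 (limma adjusted p = 1.98e-05 and 3.17e-06). Of 13 genes of mitochondrial transcription and genome maintenance, 11 fell and 0 rose (median -0.35), such as the RNA polymerase Polrmt at -0.42 ± 0.09 (limma adjusted p = 0.000313).

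The same lists were lower in long-term survivor livers under the authors' scaling, and fewer of their genes were called under the other. Under the authors' scaling 10 of 13 translation factors, 14 of 19 synthetase genes, 14 of 22 assembly genes and 8 of 13 genes of transcription and maintenance were called lower, and 0 higher. Of all tested genes 30.8% were lower and 3.85% higher. With median-of-ratios factors the counts of the lists were 4, 7, 1 and 2, with 1 synthetase gene higher. Of all tested genes 8.93% were then lower and 8.57% higher, so the 1 of 22 assembly genes lay below that share. Gfm1 changed by -0.71 ± 0.12, Nars2, an asparaginyl-tRNA synthetase, by -0.54 ± 0.07, the GTPase Mtg1 by -0.58 ± 0.09 and the DNA polymerase Polg by -0.70 ± 0.13 (limma adjusted p = 6.29e-05, 4.88e-06, 4.14e-05 and 0.000249). With median-of-ratios factors their changes were -0.50, -0.36, -0.38 and -0.49 in the same order (adjusted p = 0.00416, 0.00119, 0.00552 and 0.0107).

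**Figure D5:**
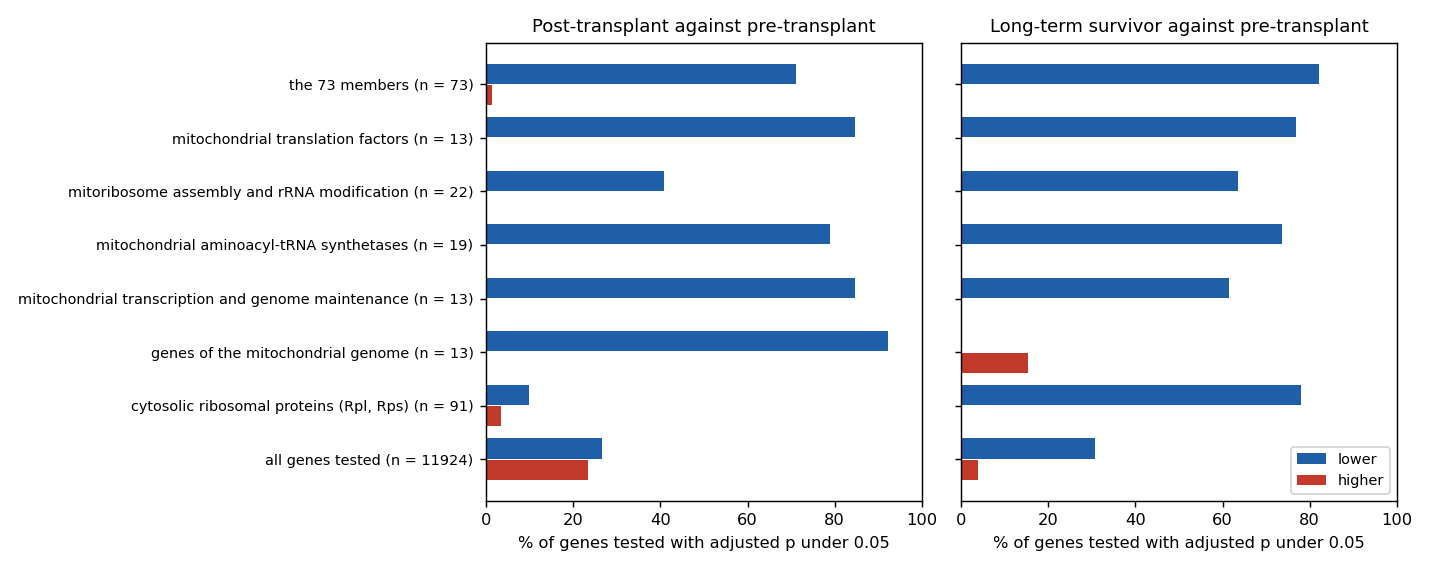
Percentage of tested genes called lower or higher at an adjusted p of 0.05, post-transplant (left) and long-term survivor (right) against pre-transplant livers, for the 73 members, related lists and all tested genes. In post-transplant livers 71.2% of the members and 9.89% of the cytosolic ribosomal protein genes are called lower, beside 26.6% of all tested genes. In long-term survivor livers these are 82.2%, 78.02% and 30.8%.

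Mitoribosomal subunits that carry other symbols were followed through 4 tested genes, of which 1 fell and 1 rose in post-transplant livers. That is near the shares of all tested genes, 26.6% and 23.4%. Chchd1 averaged 41.2 ± 8.14 FPKM in post-transplant and 51.9 ± 4.76 FPKM in pre-transplant livers (SD, n = 11 each), a change of -0.35 ± 0.10 (limma adjusted p = 0.00373, but 0.125 under quantile normalization). Dap3, a GTP-binding protein of the small subunit also known as a mediator of cell death, averaged 14.5 ± 2.11 FPKM in post-transplant and 12.1 ± 2.50 FPKM in pre-transplant livers (SD, n = 11 each), a change of 0.25 ± 0.09 (limma adjusted p = 0.0205). With the title run as a term the change of Dap3 was 0.23 and no longer passed (adjusted p = 0.050002). In long-term survivor livers 4 of the 4 were called lower, or 1 with median-of-ratios factors and 0 with a length trend removed as well. The shares of all tested genes called lower were 30.8%, 8.93% and 9.05% in the same order. Chchd1 changed by -0.62 ± 0.11 there (limma adjusted p = 6.6e-05), by -0.41 with median-of-ratios factors (adjusted p = 0.00636) and by -0.23 with the length trend removed as well (adjusted p = 0.0708). Dap3 changed by -0.30 ± 0.10 (limma adjusted p = 0.0192), and its call was lost with median-of-ratios factors (-0.099, adjusted p = 0.519). Of the 3 genes with symbols in lower case, 2 were called lower in post-transplant and 3 in long-term survivor livers against pre-transplant livers. These counts stood beside 26.6% and 30.8% of all tested genes. With median-of-ratios factors 1 and 1 were called lower, beside 24.5% and 8.93% of all tested genes.

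Other ribosomal and mitochondrial messengers gave different counts. Of 91 tested genes named Rpl or Rps, the cytosolic ribosomal proteins, many of which have near-identical copies that counting can split, 9 fell and 3 rose in post-transplant livers (median -0.13), and with quantile normalization 5 fell and 21 rose (median 0.20). Of all tested genes 26.6% fell and 23.4% rose, or 29.9% and 22.3% with quantile normalization. Among long-term survivors 71 of the Rpl and Rps genes were called lower and 0 higher (median -0.49), beside 30.8% and 3.85% of all tested genes. With median-of-ratios factors 33 were lower and 0 higher, beside 8.93% and 8.57%. Of 13 protein-coding genes of the mitochondrial genome, which mitoribosomes translate, 12 fell and 0 rose in post-transplant livers (median -0.70). Mt-nd1, a subunit of complex I, had 2414 to 5972 FPKM in post-transplant livers (median 3129.7), against 4219 to 6864 FPKM in pre-transplant livers (median 5919.8), a change of -0.70 ± 0.15 (limma adjusted p = 0.000211). For long-term survivors 2 of these genes were higher and 0 lower (median 0.25), or 6 and 0 with median-of-ratios factors. The differences between these lists and the members were not tested.

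Regulators of mitochondrial biogenesis showed no common direction between post-transplant and pre-transplant livers. In post-transplant livers Pprc1, a coactivator of the PGC-1 family, and Nrf1 rose, by 0.54 ± 0.14 and 0.24 ± 0.08, and Ppara, the fatty acid receptor of hepatocytes, fell, with a change of -0.98 ± 0.28 (limma adjusted p = 0.00181, 0.0092 and 0.00467). The call of Nrf1 was lost under quantile normalization (0.10, adjusted p = 0.266). The others of 11 tested did not pass. The list thus had 18.2% called higher and 9.09% lower, below the 23.4% and 26.6% of all tested genes. In long-term survivor livers the estimate was below 0 for 9 of 11. There 5 were called lower and 0 higher, beside 30.8% and 3.85% of all tested genes. With median-of-ratios factors 1 was lower and 0 higher, beside 8.93% and 8.57%. Esrra, an orphan receptor that acts on genes of oxidative metabolism, averaged 10.4 ± 3.03 FPKM in long-term survivor (n = 8) and 18.7 ± 3.64 FPKM in pre-transplant livers (SD, n = 11), a change of -0.82 ± 0.14 (limma adjusted p = 4.38e-05; -0.62 and 0.00207 with median-of-ratios factors).

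Markers of other cells moved with the same groups. In post-transplant livers 6 of 6 macrophage, 4 of 4 tested neutrophil, 6 of 6 stellate cell and fibroblast and 5 of 5 proliferating cell markers rose, and 3 of 7 hepatocyte markers fell. Of all tested genes 23.4% rose and 26.6% fell in post-transplant livers. Macrophage markers summed to 254 to 2027 FPKM in post-transplant, 102.7 to 152 FPKM in long-term survivor and 49.99 to 184 FPKM in pre-transplant libraries. Neutrophil markers summed to 25.1 to 655 FPKM in post-transplant, 5.32 to 44.1 FPKM in long-term survivor and 2.09 to 8.21 FPKM in pre-transplant libraries. The ranges of both sums in post-transplant libraries lay above those in pre-transplant libraries. Stellate cell and fibroblast markers summed to 115 to 638 FPKM in post-transplant, 56.4 to 114 FPKM in long-term survivor and 33.1 to 89.8 FPKM in pre-transplant libraries. Proliferating cell markers summed to 22.7 to 181 FPKM in post-transplant, 11.8 to 25.2 FPKM in long-term survivor and 12.2 to 36.1 FPKM in pre-transplant libraries. Hepatocyte markers summed to 16924 to 67962 FPKM in post-transplant, 45041 to 84586 FPKM in long-term survivor and 43889 to 94807 FPKM in pre-transplant libraries, with medians of 30759, 65027 and 77277 FPKM in the same order of groups. In post-transplant livers 2 of 4 endothelial markers rose and 1 fell, and 2 of 4 bile duct cell, 3 of 4 T and NK cell and 1 of 1 tested B and plasma cell markers rose. In long-term survivor livers 4 of 4 bile duct cell, 3 of 6 stellate cell and fibroblast, 2 of 4 neutrophil, 1 of 6 macrophage and 1 of 1 B and plasma cell markers were higher than in pre-transplant livers, 2 of 4 endothelial markers were lower, and the markers of hepatocytes, of T and NK cells and of proliferating cells did not pass. Of all tested genes 3.85% were higher and 30.8% lower in long-term survivor livers. The marker counts for long-term survivors were the same with median-of-ratios factors, except that 1 T and NK cell marker was then higher. With those factors 8.57% of all tested genes were higher and 8.93% lower. Bile duct cell markers summed to 13.8 to 41.5 FPKM in post-transplant, 17.3 to 92.2 FPKM in long-term survivor and 6.36 to 35.2 FPKM in pre-transplant libraries, and endothelial markers to 37.7 to 57.3 FPKM, 16.8 to 29.8 FPKM and 21.3 to 43.6 FPKM in the same order. No marker of these lists was at 0 in all libraries. The part of these cells in the changes of the mitoribosomal protein genes was not tested.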

How the data were processed

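Liver RNA of the 3 groups was described by 1 deposited table of FPKM per gene and library. The authors' FPKM values were used as deposited. Reads were aligned with HISAT2 2.0.5, per the submitters' processing notes, where Rnor_6.0 and mm10 appear as builds without a stated role; how reads were counted, on which annotation and with which strand setting is not given in the sources used here. Whole reads of Ensembl genes were recovered from the FPKM steps within 0.02 reads. Of 32 value columns, 2 were not used, since their shared header could not be tied to 1 sample each; 2 pre-transplant libraries that share a header carry no replicate number and are called u1 and u2.

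The members and all gene lists were chosen with earlier results of these data known. Genes that reached 1 FPKM in 8 or more libraries were tested on log2(FPKM + 1), so fold changes of low genes are understated. A single limma fit (limma 3.58.1, R 4.3.3, trended and robust variance) held all 3 groups, with Benjamini-Hochberg adjustment over all tested genes and a threshold of 0.05. Its script was tested on simulated data. Tables and figures were made with Python 3.11.15, pandas 2.3.3 and matplotlib 3.10.9. Alternatives were another pseudocount, filter, scaling and threshold, removal of a length trend, array weights, averaging of the closest long-term survivor libraries, voom on the recovered reads, the title run (a repeat of the group order in the numbered titles) as a term and leaving out each library.

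Named members are the 6 with the highest level, up to 4 called with the greatest rise and fall per comparison, the 2 with the smallest post-transplant change, the 3 homologs of S18 and the genes at the edges of the threshold; Mrps11 and Mrpl46 were added for their shared promoter. For other lists, up to 3 genes with the smallest adjusted p per comparison are named. Promoters are RefSeq sequences of GRCr8, and no coordinates were moved between builds.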

Additional observations from a re-analysis of the deposited data

Results flagged for a closer look

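In the 8 long-term survivor libraries, 3 of 24 named members had a highest library that stood apart from the others by more than Dixon's 95% critical value of 0.526 for 8 samples, a rule that flags about 1 in 20 groups by chance. In each it was replicate 1. Mrps18a had 41.0 FPKM there, against 26.9 to 31.2 FPKM in the other 7 libraries. Mrps18b had 27.2 FPKM, against 19.1 to 22.5 FPKM. Mrps35 had 19.6 FPKM, against 11.9 to 14.1 FPKM. Groups of 11 libraries were not examined in this way.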

How the results depend on the processing

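No paired analysis was possible because replicate numbers were given in accession order and pair no samples. Of the values for counts and medians of the members, 283 stayed within the limits set and 29 moved. A 1.5-fold minimum left 5 members called in post-transplant and 22 in long-term survivor livers against pre-transplant livers, and 3 between long-term survivor and post-transplant livers, all lower (of all tested genes 10.5%, 7.6% and 15.5%), where a threshold of 0.01 left 11, all lower (27.6%). For long-term survivor against pre-transplant livers, 32 members were called under median-of-ratios scaling (median -0.23) and 30 under quantile normalization (median -0.22), all lower. A pair of settings was chosen after seeing the data. Median-of-ratios scaling with the length trend removed gave 27 called and 26 lower (median -0.17), and with the closest libraries averaged 19, all lower (median -0.20). For long-term survivor against post-transplant livers, 6 were lower under median-of-ratios scaling, 8 with the length trend removed as well (median 0.069) and 5 with the closest libraries averaged as well (median 0.064). Array weights gave 35 called and 33 lower (of all tested genes 40.4% lower and 12.8% higher), and averaging alone 13 called (32.9% and 8.99%). The causes were not tested.

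Leaving out 1 library gave 43 to 58 called and 42 to 57 lower in post-transplant livers (median -0.34 to -0.27), 55 to 62 called, all lower, in long-term survivor livers (median -0.48 to -0.40), and 15 to 30 called and 14 to 30 lower between long-term survivor and post-transplant livers (median -0.19 to -0.11). In these fits 2915 to 3281, 3227 to 3668 and 4157 to 4451 of 11924 tested genes were lower, in the same order of comparisons. Leaving out 1 library also turned the sign of Mrpl30 (long-term survivor, -0.25 to 0.11), Mrpl45 (post-transplant, -0.034 to 0.046), Mrpl47 (post-transplant, -0.045 to 0.027), Mrpl49 (post-transplant, -0.074 to 0.056), Mrps18b (long-term survivor, -0.089 to 0.020). Other settings turned the sign of named members (log2 scale), first for post-transplant against pre-transplant livers. Median-of-ratios scaling gave Mrpl47 at 0.014, Mrpl49 at 0.0014. Quantile normalization gave Mrpl45 at -8.1e-05, Mrps12 at 0.084. Removal of the length trend gave Mrpl47 at 0.0025, Mrpl49 at 0.10, Mrps12 at 0.010. Array weights gave Mrpl49 at 0.095. Voom on recovered reads gave Mrpl49 at 0.015. Leaving out both pre-transplant u2 and replicate 9 of the post-transplant group gave Mrpl47 at 0.025. The title run as a term gave Mrpl45 at -0.024. Median-of-ratios scaling with the length trend removed gave Mrpl47 at 0.018, Mrpl49 at 0.12, Mrps12 at 0.031. The following are for long-term survivor against pre-transplant livers. Median-of-ratios scaling gave Mrpl10 at 0.084, Mrpl30 at 0.039, Mrps18a at 0.12, Mrps18b at 0.17. Quantile normalization gave Mrpl10 at 0.10, Mrpl30 at 0.028, Mrpl52 at 0.019, Mrps18a at 0.15, Mrps18b at 0.17. Removal of the length trend gave Mrps18a at 0.028. Array weights gave Mrps18b at 0.014. Leaving out both pre-transplant u2 and replicate 9 of the post-transplant group gave Mrps18b at 0.020. Leaving out pre-transplant u1 and u2 gave Mrps18b at 0.022. Median-of-ratios scaling with the length trend removed gave Mrpl10 at 0.077, Mrpl17 at 0.019, Mrpl52 at 0.051, Mrps18a at 0.23, Mrps18b at 0.14, Mrps18c at 0.014, Mrps6 at 0.073. Median-of-ratios scaling with the closest libraries averaged gave Mrpl10 at 0.077, Mrpl30 at 0.044, Mrpl52 at 0.0071, Mrps18a at 0.13, Mrps18b at 0.18. The following are for long-term survivor against post-transplant livers. Median-of-ratios scaling gave Mrpl14 at 0.030, Mrps11 at 0.14. Quantile normalization gave Mrpl1 at 0.11, Mrpl46 at 0.011, Mrpl47 at 0.10, Mrps11 at 0.082. Median-of-ratios scaling with the length trend removed gave Mrpl1 at 0.0024, Mrpl14 at 0.073, Mrps11 at 0.18. Median-of-ratios scaling with the closest libraries averaged gave Mrpl14 at 0.044, Mrpl46 at 0.0062, Mrps11 at 0.16.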
